A study of Homo sapiens with 12 samples.

Results

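DNA glycosylases start base excision repair by cutting a damaged or misplaced base from its sugar. The genes described here are the human glycosylases other than OGG1, namely UNG, SMUG1, TDG, MBD4, MPG, NTHL1, MUTYH, NEIL1, NEIL2 and NEIL3. They were taken as a named list and matched by symbol to the raw count table. Each symbol matched 1 row, so they are 10 of the 58735 genes in that table, and all 10 passed the filter on low counts that left 17290 genes for testing.

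RNA was sequenced from U2OS cells, an established human osteosarcoma line, in 12 libraries. The 4 groups of 3 libraries were treated for 24 h with DMSO as the solvent control, with TH10785 at 10 µM, with PNKP1i at 10 µM, or with both at 10 µM each. TH10785 is an activator of OGG1, the glycosylase for oxidised guanine, and the series record spells it TH10587. PNKP1i is named as a compound, and the labels give no structure for it.

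Glycosylases fall into structural families with different substrates. UNG, SMUG1 and TDG belong to the uracil-DNA glycosylase superfamily and remove uracil, or thymine mispaired with guanine, and MBD4 does the latter at methylated CpG sites. NTHL1 and the NEIL enzymes remove oxidised pyrimidines, MUTYH removes adenine placed opposite oxidised guanine, and MPG removes alkylated purines. NTHL1 and the NEIL enzymes can also cut the DNA backbone.

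In the main edgeR fit of all 12 libraries, without offsets for base composition, UNG, MBD4, NTHL1 and MPG passed a test in at least 1 comparison. Other fits, given below, called further members. The sequence upstream of the starts of these 4 genes is shown for orientation. The windows hold the 250 bases before each start in RefSeq's table (GRCh38.p14), written 5′ to 3′ on the gene's strand. Capitals mark matches, on either strand, to the E2F words (TTGGCGC or TTCCCGC or else TTGCCGC or TTCGCGC), the CCAAT box (CCAAT), the GC box (GGGCGG), the E-box (CACGTG), the CHR (TTTGAA), the NRF1 core (GCATGCGC), the CRE core (TGACGT) and the ETS word CCGGAAG. Matches can overlap or abut: in the second UNG window an E2F word overlaps a CCAAT box, and the E-box and the CHR lie end to end.
UNG, first start, chr12:109097347-109097596, plus strand: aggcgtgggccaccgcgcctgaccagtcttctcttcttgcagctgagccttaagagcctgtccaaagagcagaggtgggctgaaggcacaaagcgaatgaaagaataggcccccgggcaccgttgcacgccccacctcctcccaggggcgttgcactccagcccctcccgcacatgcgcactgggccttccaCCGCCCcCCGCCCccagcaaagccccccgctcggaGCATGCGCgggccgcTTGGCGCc
UNG, second start, chr12:109097922-109098171, plus strand: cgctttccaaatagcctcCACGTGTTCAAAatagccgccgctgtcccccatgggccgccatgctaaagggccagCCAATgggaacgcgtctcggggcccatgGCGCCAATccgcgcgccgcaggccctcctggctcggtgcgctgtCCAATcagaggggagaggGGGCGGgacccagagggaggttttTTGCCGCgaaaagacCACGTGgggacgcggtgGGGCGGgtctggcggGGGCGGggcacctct
MBD4, chr3:129439949-129440198, minus strand: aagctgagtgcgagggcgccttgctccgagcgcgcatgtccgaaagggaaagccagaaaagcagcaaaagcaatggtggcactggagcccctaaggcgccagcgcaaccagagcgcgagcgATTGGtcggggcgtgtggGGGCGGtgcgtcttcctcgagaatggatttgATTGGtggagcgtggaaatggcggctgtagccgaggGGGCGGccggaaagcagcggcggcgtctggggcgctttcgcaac
NTHL1, chr16:2047835-2048084, minus strand: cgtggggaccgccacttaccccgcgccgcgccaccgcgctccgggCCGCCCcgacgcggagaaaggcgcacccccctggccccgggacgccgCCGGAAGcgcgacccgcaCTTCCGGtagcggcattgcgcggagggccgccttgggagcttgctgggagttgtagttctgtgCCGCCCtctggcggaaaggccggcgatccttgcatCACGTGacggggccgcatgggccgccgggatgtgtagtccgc
MPG, chr16:77975-78224, plus strand: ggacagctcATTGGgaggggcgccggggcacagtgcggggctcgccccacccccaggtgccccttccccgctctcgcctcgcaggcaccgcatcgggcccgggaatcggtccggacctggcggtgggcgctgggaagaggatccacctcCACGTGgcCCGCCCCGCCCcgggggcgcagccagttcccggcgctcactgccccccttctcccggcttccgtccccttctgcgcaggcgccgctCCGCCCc

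Both UNG windows held an E2F word, 8 bases before the first start and 62 and 148 bases before the second. Of 35116 windows of the same length over all genes, 10.9% held one. Among the 13 windows of the 8 glycosylases in the table, 3 held one, the third belonging to TDG. The E-box, present in 6.34% of all windows, was found in the second UNG window and in those of NTHL1, MPG and TDG. The CCAAT box was in 8 of the 13 windows, where 32% of all windows held it, and the GC box in 10, where 42.6% did. Of the 13, the CHR was in 3 (13.3% of all windows) and the NRF1 core in 2 (2.63%). The ETS word was in 1 (8.52%) and the CRE core in 1 (7.1%). These matches describe the letters only. UNG makes a nuclear and a mitochondrial enzyme from alternative starts, and the gene counts hold both forms together.

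UNG was the most abundant of these transcripts and NEIL1 the least. Levels are given as CPM, the count scaled to a common library size after TMM normalization, and were divided by the merged exon length in kb wherever genes are compared with each other. With DMSO the level of UNG was 44.1 ± 3 CPM per kb (SD, n = 3) and that of NEIL1 0.898 ± 0.085 CPM per kb. MPG followed UNG at 17.2 ± 3.6 and NEIL2 at 14.1 ± 0.41 CPM per kb, 2 levels that overlapped. NTHL1 stood at 8.63 ± 0.99 CPM per kb, above SMUG1 at 5.63 ± 0.95, MBD4 at 5.6 ± 0.69 and MUTYH at 4.08 ± 0.24. NEIL3 stood at 3.56 ± 0.31 and TDG at 2.78 ± 0.12 CPM per kb. SMUG1 and MBD4, and likewise MUTYH and NEIL3, did not differ beyond their spread in that order. The merged length counts every annotated exon, so a gene with many isoforms is placed lower than its main transcript would be.

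**Figure D1:**
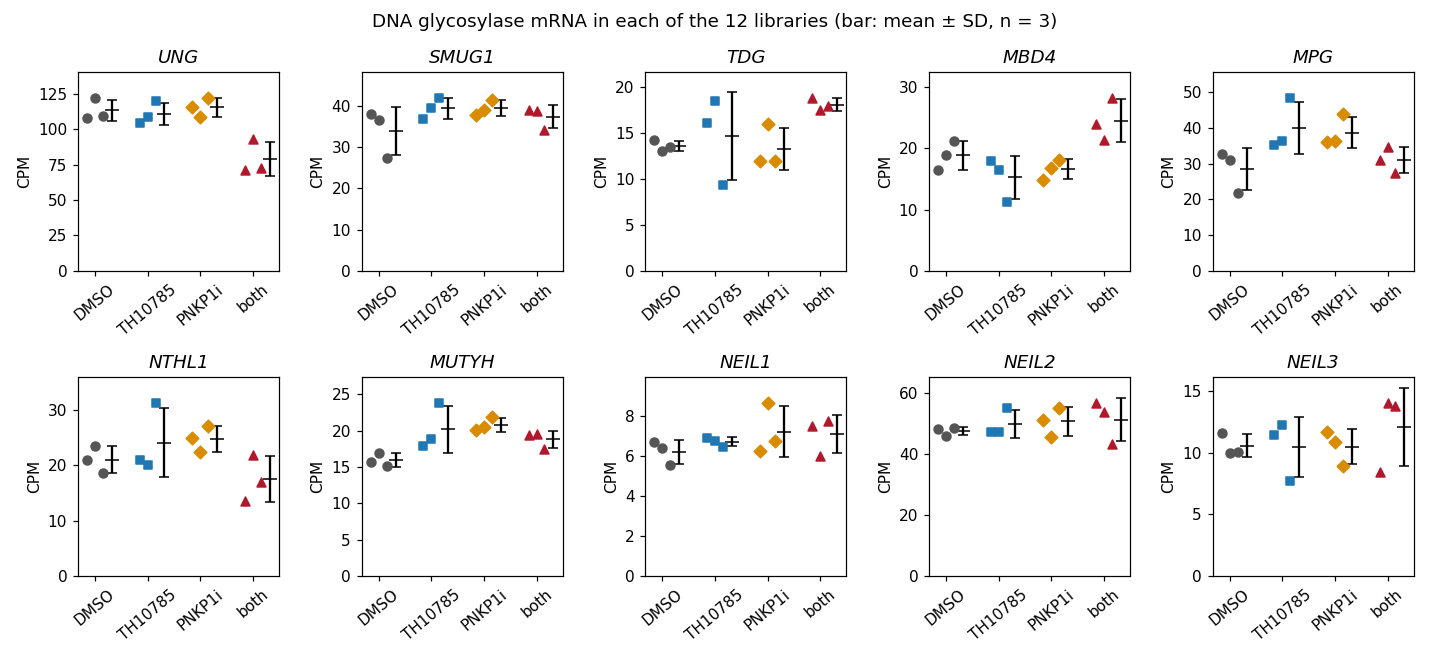
CPM of each glycosylase (y axis, from 0) in the 12 libraries, with circles for DMSO, squares for TH10785, diamonds for PNKP1i and triangles for both compounds, and bars for the mean ± SD of 3 libraries. UNG lies between 71.5 and 92.9 CPM with both compounds and between 104.5 and 122 CPM in the other 9 libraries.

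The per-length levels of the 10 genes summed to 107 ± 6.6 CPM per kb with DMSO, 116 ± 9.7 with TH10785, 118 ± 7.3 with PNKP1i and 99 ± 8.8 with both compounds (SD, n = 3 each). UNG made up 41.4 ± 2% of this sum with DMSO, 37.3 ± 0.56% with TH10785, 38.2 ± 0.72% with PNKP1i and 31 ± 2% with both. The UNG share with both compounds, 29.2% to 33.2%, lay below that of the other 9 libraries. NEIL2 took 13.3 ± 1.2% with DMSO and 15.4 ± 2% with both, and MBD4 5.29 ± 0.92% and 7.46 ± 1.6%. These shares are tied to each other, since a smaller UNG share leaves larger ones elsewhere.

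**Figure D2:**
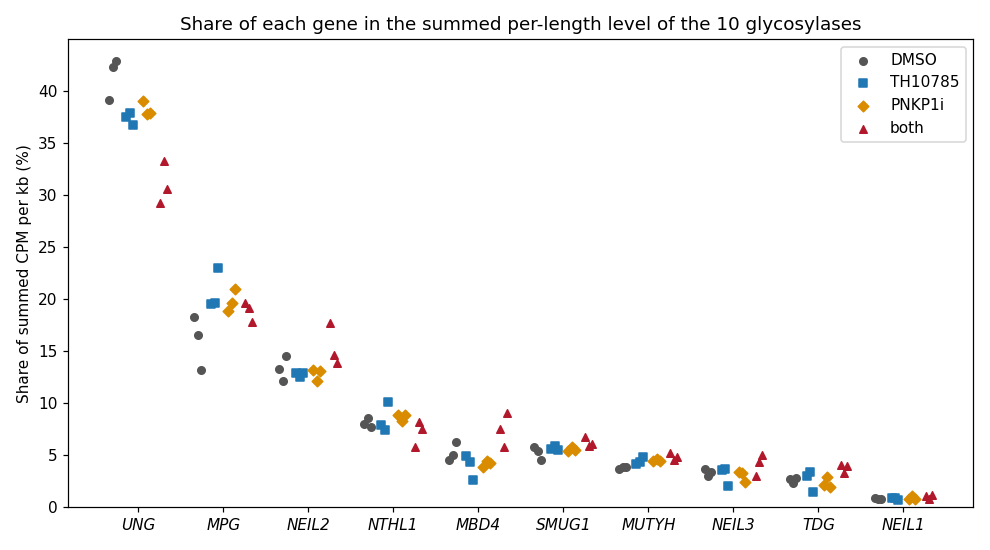
Share of each gene in the summed CPM per kb of the 10 glycosylases (y axis, percent), with 3 points per group for the 4 groups. UNG holds the largest share in each of the 12 libraries, between 29.2% and 42.9%, and is lowest with both compounds.

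Neither compound alone changed a glycosylase transcript past the test. Genes were tested with edgeR's quasi-likelihood test and called at a Benjamini-Hochberg adjusted p under 0.05 over all 17290 genes. With TH10785, 0 of the 10 were called against DMSO, where 0.561% of all genes were. With PNKP1i, 0 of the 10 were called, where 0.197% of all genes were. Against each other, TH10785 and PNKP1i differed in 0 of the 10, where 0.902% of all genes did. DESeq2 and limma-voom also called 0 in each of these comparisons. At an unadjusted p under 0.05, 2 of the 10 passed for TH10785, 2 for PNKP1i and 0 for the direct comparison, where 2445, 1957 and 1497 of the 17290 genes did.

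Those 2 were MUTYH and MPG in both cases. MUTYH, which acts on the mispair left when oxidised guanine is copied, was at 15.7, 17 and 15.1 CPM in the DMSO libraries (replicates 1 to 3). It was at 17.8, 18.9 and 23.8 CPM with TH10785 and at 20.1, 20.5 and 21.9 CPM with PNKP1i. All 6 single-agent libraries lay above the 3 DMSO libraries. The log2 difference was 0.34 (SE 0.14, adjusted p = 0.294) for TH10785 and 0.39 (SE 0.14, adjusted p = 0.369) for PNKP1i.

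MPG, the alkyladenine glycosylase, was at 32.8, 31 and 21.7 CPM with DMSO. It was at 35.2, 36.3 and 48.4 CPM with TH10785 and 36, 36.3 and 43.8 CPM with PNKP1i. Here too all 6 lay above DMSO, with DMSO replicate 3 the lowest library. The log2 difference was 0.49 (SE 0.17, adjusted p = 0.206) for TH10785 and 0.44 (SE 0.17, adjusted p = 0.372) for PNKP1i. Over all genes, the TH10785 and DMSO libraries did not overlap in 19.7%, and the PNKP1i and DMSO libraries in 25.9%, so 2 of 10 is near both backgrounds. Both comparisons use the same DMSO libraries.

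In a fit of only the PNKP1i and DMSO libraries MUTYH (log2 0.40, adjusted p = 0.0425) and MPG (0.46, adjusted p = 0.0341) were called; that fit called 1150 genes against 34. For the other 8 genes the 95% intervals bound the size of a change with 1 compound. UNG lay between 0.822 and 1.17 times its DMSO level with TH10785 and between 0.855 and 1.21 times with PNKP1i. NEIL2 lay between 0.870 and 1.26 times with TH10785. For NEIL3 the interval was wider, 0.723 to 1.36 times with TH10785, and changes inside it were not detectable with these libraries.

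**Figure D3:**
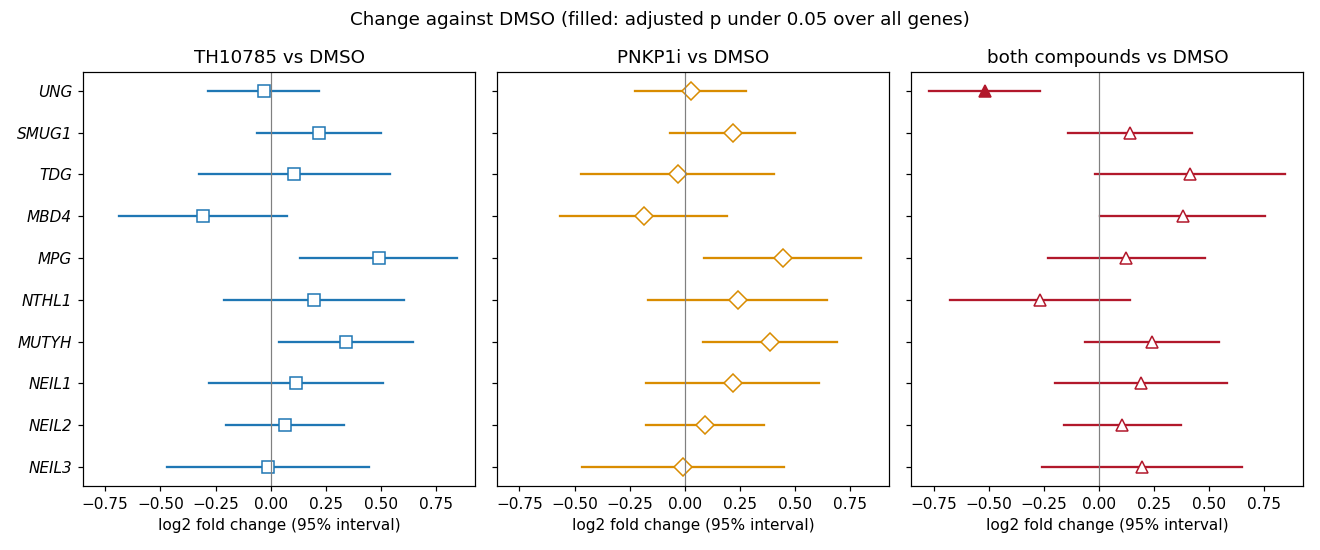
Log2 fold change against DMSO (x axis) of the 10 glycosylases with its 95% interval, for TH10785, PNKP1i and both compounds; filled symbols mark an adjusted p under 0.05. The 1 filled symbol is UNG with both compounds, at -0.52.

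With both compounds UNG fell. No other glycosylase in the list passed the test against DMSO in the fit of all 12 libraries without offsets for base composition. The 10 genes gave 1 call, a fall, where 41.0% of all genes were called, 21.3% as rises and 19.7% as falls. A count of 1 in 10 is therefore below the background in this fit. The median log2 fold change of the 10 was 0.16, against 0.04 over all genes. In the same test 2 of the 10 had an unadjusted p under 0.05, where 8528 of the 17290 genes did. With offsets for GC content and length, given below, 5 of the 10 rose and 1 fell, where 34.1% of all genes were called.

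UNG, the main enzyme against uracil in DNA, was at 108, 122 and 109 CPM in the DMSO libraries. It was at 105, 108 and 120 CPM with TH10785 and at 115, 108 and 122 CPM with PNKP1i. With both compounds it was at 71.5, 92.9 and 72.8 CPM. Each combination library lay below each of the other 9. Against DMSO UNG fell by 0.52 on the log2 scale (SE 0.12, adjusted p = 0.00288), to 0.698 times the DMSO level (95% interval 0.586 to 0.832). It was lower than with TH10785 alone by -0.49 (SE 0.12, adjusted p = 0.00434) and than with PNKP1i alone by -0.54 (SE 0.12, adjusted p = 0.00177). These 3 calls held in each of the 24 alternative settings tried.

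UNG shares no exon with a gene on the opposite strand in GENCODE 29. For glycosylases that do, the shared exons could affect the counts in a direction not known here, since no source used here states the strand setting of the counting. UNG lies on chromosome 12 (109097574 to 109110992, ENSG00000076248). Its processed pseudogenes UNGP1 and UNGP3 had at most 0 and 2 counts in a library.

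SMUG1, which also removes uracil, passed no test without offsets for base composition. It ran from 27.3 to 37.9 CPM with DMSO, 36.8 to 41.9 with TH10785, 37.7 to 41.5 with PNKP1i and 34.1 to 39.1 with both (log2 0.14 against DMSO, SE 0.13, adjusted p = 0.426). The lowest value belonged to DMSO replicate 3. DUT, the dUTPase that keeps uracil out of the nucleotide pool, fell with both compounds from 139 ± 9 to 103 ± 17 CPM (log2 -0.43, SE 0.12, adjusted p = 0.00848).

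MBD4, the thymine glycosylase with a methyl-CpG binding domain, was higher with both compounds than with either alone. It was at 16.5, 18.9 and 21.1 CPM with DMSO and at 24, 21.3 and 28.2 CPM with both. With TH10785 it was at 18, 16.5 and 11.3 CPM and with PNKP1i at 14.8, 16.7 and 18.1 CPM. The combination libraries lay above all 9 others, the closest being combination replicate 2 and DMSO replicate 3. MBD4 rose by 0.69 on the log2 scale over TH10785 (SE 0.18, adjusted p = 0.00612) and by 0.57 over PNKP1i (SE 0.18, adjusted p = 0.0156). The difference from DMSO was 0.38 (SE 0.18, adjusted p = 0.0961). The call against PNKP1i ended without PNKP1i replicate 1 (log2 0.49, adjusted p = 0.0696) and without combination replicate 3 (0.45, adjusted p = 0.0824). It also ended in a test against a fold of 1.2 (adjusted p = 0.053). With the offsets for GC content and length MBD4 was called neither against TH10785 (log2 0.32, adjusted p = 0.073) nor against PNKP1i (0.15, adjusted p = 0.408).

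TDG, which acts in the removal of oxidised methylcytosine, passed no test, and its mean was highest with both compounds. It was at 14.2, 13.1 and 13.5 CPM with DMSO, at 18.9, 17.5 and 18 CPM with both, and at 12, 16 and 12 CPM with PNKP1i. With TH10785 it was at 16.1, 18.6 and 9.32 CPM, so that replicate 3 was the lowest of the 12 libraries and replicate 2 lay within the combination's range. The log2 difference of both compounds from DMSO was 0.41 (SE 0.20, adjusted p = 0.118). Without TH10785 replicate 3 the fit called TDG (0.42, adjusted p = 0.0156) and MBD4 (0.39, adjusted p = 0.0214) against DMSO, which made 3 calls with UNG. Over all genes the calls in this comparison also moved with the alternatives, from 4944 to 8468 around 7093. TH10785 replicate 3 stood apart, as its guanine and cytosine trend below shows.

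Against DMSO, 4 of the 10 genes had groups that did not overlap (MUTYH, MBD4 and TDG higher, UNG lower), where 53.6% of all genes did. Against TH10785, 2 of the 10 were called, MBD4 as a rise and UNG as a fall, where 42.3% of all genes were called, 22.7% as rises and 19.7% as falls. Against PNKP1i, 3 of the 10 were called, MBD4 as a rise and UNG and NTHL1 as falls, where 46.0% of all genes were called, 24.4% as rises and 21.5% as falls. By calls in this fit, the members' share was below the background in the comparisons with DMSO, TH10785 and PNKP1i. Whether 10 genes differ from the background in this was not tested. With the offsets for GC content and length the order turned round against DMSO. There 5 of the 10 rose and 1 fell, where 34.1% of all genes were called. By groups that did not overlap, it was 3 of 10 against TH10785, where 52.2% of all genes did not overlap, and 6 of 10 against PNKP1i, where 58.2% did not.

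NTHL1, the human endonuclease III, was at 20.9, 23.4 and 18.6 CPM with DMSO and at 13.5, 21.8 and 17 CPM with both compounds. It was at 24.9, 22.4 and 27 CPM with PNKP1i, just above the highest combination library, and at 20.8, 20 and 31.2 CPM with TH10785. NTHL1 fell by 0.51 on the log2 scale from PNKP1i to both (SE 0.19, adjusted p = 0.0404), and differed from DMSO by -0.27 (SE 0.19, adjusted p = 0.287). The call against PNKP1i ended without DMSO replicate 1 (adjusted p = 0.0509), PNKP1i replicate 1 (0.0926), PNKP1i replicate 3 (0.133), combination replicate 1 (0.171, log2 -0.35) or combination replicate 3 (0.0987). It also ended in a test against a fold of 1.2 (adjusted p = 0.107) and with the offsets for GC content and length (log2 -0.14, adjusted p = 0.451). NTHL1 shares 16.5% of its merged exon length with TSC2 on the opposite strand. With both compounds the log2 difference of TSC2 was -0.26 from PNKP1i (adjusted p = 0.0943) and -0.17 from DMSO (adjusted p = 0.28).

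No NEIL enzyme passed the test in any of the 7 comparisons without offsets for base composition. NEIL1 ran from 5.57 to 6.7 CPM with DMSO and from 6.01 to 7.78 CPM with both compounds (log2 0.19, SE 0.19, adjusted p = 0.435), on 104 to 172 counts a library. NEIL1 shares 30.5% of its merged exons with opposite-strand genes, mainly MAN2C1. NEIL2, on chromosome 8, ran from 46.1 to 48.6 CPM with DMSO and from 43.2 to 56.7 CPM with both (log2 0.11, SE 0.13, adjusted p = 0.532). NEIL3, which is known to act on DNA crosslinks at replication forks, ran from 9.96 to 11.6 CPM with DMSO and from 8.42 to 14 CPM with both (log2 0.20, SE 0.21, adjusted p = 0.491). With both compounds NEIL3 lay on either side of DMSO, with combination replicate 1 at 8.42 CPM below all DMSO libraries and replicates 2 and 3 at 14 and 13.8 CPM above them.

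MUTYH and MPG, the genes highest with single compounds relative to DMSO, lay nearer to DMSO with both, an order that turned round with the offsets for GC content and length. MUTYH was at 19.4, 19.6 and 17.5 CPM with both, still above each DMSO library (log2 0.24, SE 0.14, adjusted p = 0.193). MPG was at 31, 34.7 and 27.4 CPM with both, which overlaps DMSO (0.12, SE 0.17, adjusted p = 0.587) and lies below all 6 single-agent libraries. MPG shares 27.3% of its merged exons with NPRL3 on the opposite strand, which fell with both compounds (-0.61, SE 0.16, adjusted p = 0.00533). MUTYH shares 14.1% with TOE1 (-0.22, adjusted p = 0.175) and MBD4 4.29% with IFT122, which fell (-0.55, SE 0.11, adjusted p = 0.00121). The part of these neighbours in the members' counts was not tested.

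The interaction asks whether both compounds together differ from the sum of the single effects on the log2 scale. It was called for 3 of the 10, 1 higher and 2 lower than the sum, where 30.6% of all genes were called, 16.5% higher and 14.1% lower. A count of 3 in 10 is near that background. UNG lay below the sum by -0.51 (SE 0.17, adjusted p = 0.0303), with single effects of -0.03 and 0.03. MBD4 lay above it by 0.87 (SE 0.25, adjusted p = 0.0179), with single effects of -0.31 and -0.19. MPG lay below it by -0.81 (SE 0.24, adjusted p = 0.019), with single differences of 0.49 and 0.44 and a difference of 0.12 with both. NTHL1 (-0.70, adjusted p = 0.0592) and MUTYH (-0.49, adjusted p = 0.0778) did not pass.

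Each of the 3 interaction calls was lost when certain single libraries were left out. The UNG call ended without DMSO replicate 1 (adjusted p = 0.0651) or 3 (0.069), PNKP1i replicate 1 (0.0594) or 3 (0.0829), and combination replicate 1 (0.0609) or 3 (0.0736). The MBD4 call ended without DMSO replicate 3 (0.0537), PNKP1i replicate 1 (0.0538) and combination replicate 3 (0.0563). The MPG call ended without DMSO replicate 3 (0.0523) and PNKP1i replicate 3 (0.0581). Without DMSO replicate 3 the interaction was called for 0 of the 10. It was called for 1 without PNKP1i replicate 1, PNKP1i replicate 3 or combination replicate 3, and for 5 without TH10785 replicate 1. Over all genes the interaction calls also moved with the alternatives, from 2699 to 6140 around 5289.

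Base composition moved with these results. Genes whose longest transcript has under 40% guanine and cytosine (GC) lay 0.46 to 0.80 above the DMSO mean in the combination libraries (median log2 difference), and genes over 60% lay at -0.37 to -0.34. In TH10785 replicate 3 the same medians were -0.63 and 0.22. TDG (39.5% GC), NEIL3 (41.4%) and MBD4 (42.8%) are the members with the least GC, and MPG (65.6%), NTHL1 (63.8%), NEIL1 (61.3%) and MUTYH (60.5%) those with the most. UNG stands between them at 50.7%, with SMUG1 at 54.7% and NEIL2 at 55.3%.

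With per-library offsets for GC content and transcript length the members changed places, UNG excepted. UNG still fell against DMSO (log2 -0.48, SE 0.10, adjusted p = 0.000895). It was also lower than with TH10785 (-0.39, adjusted p = 0.00503) and PNKP1i (-0.41, adjusted p = 0.00333). MBD4 went from 0.38 to -0.01 against DMSO (adjusted p = 0.962), and its differences from TH10785 (0.32, adjusted p = 0.073) and PNKP1i (0.15, adjusted p = 0.408) were no longer called. TDG went from 0.41 to -0.15 (adjusted p = 0.407) and NTHL1 from -0.27 to 0.02 (adjusted p = 0.942).

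In that fit 5 members rose against DMSO. They were NEIL1 (log2 0.58, adjusted p = 0.019), MUTYH (0.52, adjusted p = 0.00123), MPG (0.46, adjusted p = 0.00934), SMUG1 (0.31, adjusted p = 0.039) and NEIL2 (0.29, adjusted p = 0.0423). That made 5 rises and 1 fall among the 10, where 34.1% of all genes were called with the offsets, 16.6% as rises and 17.5% as falls. With the offsets MUTYH was at 0.26 with TH10785, 0.27 with PNKP1i and 0.52 with both, and MPG at 0.42, 0.39 and 0.46; the single-compound values were not called. Against PNKP1i, the offsets called UNG and NEIL2 (0.30, adjusted p = 0.0347). The interaction was then called for 0 of the 10, with UNG at -0.32 (adjusted p = 0.105), MBD4 at 0.48 (0.0813) and MPG at -0.34 (0.186). Over all genes the offsets called 33.3% against PNKP1i and 18.9% for the interaction, where the fit without them called 46.0% and 30.6%. Which of the 2 fits is nearer to the cells' RNA was not tested.

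**Figure D4:**
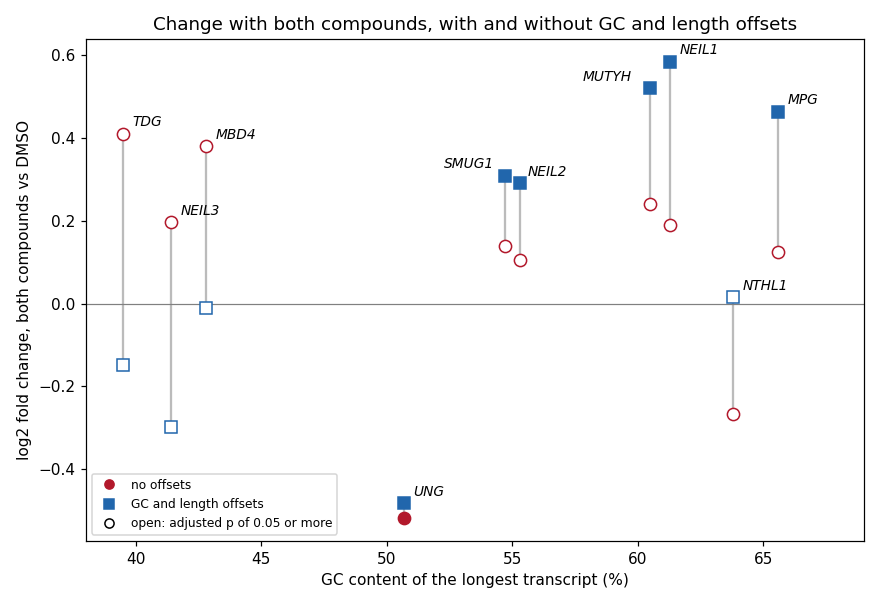
Log2 fold change of both compounds against DMSO (y axis) by GC content of the longest transcript (x axis, percent), as circles without and squares with GC and length offsets; filled symbols mark an adjusted p under 0.05. UNG keeps its place (-0.52 and -0.48), while the low-GC members move down and the high-GC members move up.

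OGG1, the target of TH10785, is given beside the other glycosylases. It ran from 46.6 to 54.8 CPM with DMSO and from 33.1 to 40.9 CPM with both, a fall of -0.49 on the log2 scale (SE 0.13, adjusted p = 0.00723), and -0.34 with the offsets (adjusted p = 0.032). Both compounds differed from TH10785 by -0.49 (adjusted p = 0.00682) and from PNKP1i by -0.61 (adjusted p = 0.00154). The interaction was -0.61 (adjusted p = 0.0213), and -0.58 with the offsets (adjusted p = 0.0246). OGG1 shares 29% of its merged exons with opposite-strand genes, whose part in its counts was not tested.

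The rest of the repair pathway was described from lists of related genes. In no list was a gene called with either compound alone, except that the offsets for GC content and length called POLD2, a subunit of polymerase delta, with TH10785 (log2 0.42, adjusted p = 0.0274). With both compounds, of the 30 genes that act after the glycosylase 6 rose and 9 fell (median log2 -0.12; 2 and 10 with the offsets). Beside these counts and the list counts that follow, 21.3% of all genes rose and 19.7% fell, or 16.6% and 17.5% with the offsets. LIG1, the replicative DNA ligase, fell from 206 ± 14 to 117 ± 18 CPM (log2 -0.81, SE 0.13, adjusted p = 0.000216), and POLD1, the catalytic subunit of polymerase delta, from 295 ± 25 to 174 ± 20 CPM (-0.76, adjusted p = 0.000587). Of the 8 genes that clean the nucleotide pool 0 rose and 2 fell (1 and 2 with the offsets), DUT and NUDT18 (-1.02, adjusted p = 0.00291). None of the 3 genes that reverse base damage directly was called, with ALKBH3 at 0.29 (adjusted p = 0.104) and ALKBH2 at 0.25 (adjusted p = 0.249).

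UNG is known to be made in S phase, so the cell cycle lists are given beside it. Of 17 S phase genes 0 rose and 9 fell (median -0.41; 0 and 7 with the offsets), among them TK1, the thymidine kinase, from 641 ± 59 to 318 ± 87 CPM (log2 -1.01, SE 0.19, adjusted p = 0.00068), and RRM2, a subunit of ribonucleotide reductase (-0.79, adjusted p = 8.67e-05). Of 15 genes of G2 phase and mitosis 1 rose and 7 fell (median -0.23; 0 and 9 with the offsets), with PLK1 at -1.20 (adjusted p = 1.92e-05) and AURKB at -0.89 (adjusted p = 0.000133). Fewer cells in a phase and less RNA per cell cannot be told apart in these bulk libraries, and the part of the cell cycle in the UNG level was not tested.

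Of 8 genes listed for cytosine methylation and oxidation, processes that TDG and MBD4 act around, 1 rose and 3 fell with both compounds against DMSO (median log2 -0.18). With the offsets 2 rose and 2 fell, and the median changed sign to 0.03. Without the offsets the 1 rise was that of GADD45A, a stress-induced gene (log2 1.11, SE 0.13, adjusted p = 1.22e-05). DNMT3B, a DNA methyltransferase, fell by 0.66 (SE 0.11, adjusted p = 0.000278).

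Over the 12 libraries the members were compared in pairs by Pearson's r of log2 CPM. SMUG1 and MPG had the highest r of any pair, 0.91, followed by MUTYH with MPG at 0.86 and NTHL1 with UNG at 0.83. NTHL1 with TDG had the lowest, -0.81, followed by NTHL1 with MBD4 at -0.80 and UNG with MBD4 at -0.76. Group means were not removed, so differences between the 4 groups enter every r. Differences among the libraries in depth and GC trend can enter as well.

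The protein-coding genes most like each member were listed by the same measure. UNG was nearest to ENHO (r 0.99) and CDCA8 (0.98), MBD4 to UBLCP1 and LCLAT1 (both 0.98), and MPG to PKIG (0.99) and CLIC1 (0.98). NTHL1 was nearest to CCDC85B and LAGE3 (both 0.98), MUTYH to SERTAD1 and ERCC1 (both 0.96), TDG to FBXO38 and CCNG1 (both 0.95) and SMUG1 to MAGEA4 and UROD (both 0.93). NEIL3 was nearest to TDRD7 (0.91) and HIBADH (0.89), NEIL2 to TXNL4B (0.90) and YRDC (0.85), and NEIL1 to FLACC1 (0.85) and CFAP43 (0.78). Values this high are the top of all protein-coding genes tested that have a symbol, over 12 points, and carry no test.

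The libraries held 16225339 to 21546369 counts, and their label was checked with markers. The mesenchymal genes VIM, SPARC, FN1, COL5A1, CD44 and RUNX2 were at 16.2 CPM or more in each library. CD3E was at 0 counts throughout and TERT, which U2OS cells are known to lack, at 0 to 6 counts. PTPRC ran from 0 to 6, MS4A1 from 0 to 3, CD14 from 0 to 14 and ALB from 0 to 1 counts. The epithelial markers EPCAM (22 to 89 counts) and CDH1 (28 to 56) were present in each library. So were the endothelial markers PECAM1 (8 to 30 counts) and CDH5 (8 to 25). The summed level of 9 markers of blood, epithelium, endothelium and liver ran from 6.55 to 8.03 CPM with DMSO, 5.68 to 8.75 with TH10785, 5.24 to 6.73 with PNKP1i and 8.03 to 10.5 CPM with both compounds. Its part in the results was not tested.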

How the data were processed

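RNA was extracted with TRIzol and sequenced as paired reads on an Illumina instrument, per the labels' protocols. The tools listed per the submitters' processing notes are HISAT2 2.0.5, HTSeq 0.6.1 and DESeq2 1.30.1, with GRCh38 (hg38) as build; annotation and strand setting are not given in the sources used here. The deposited raw read counts cover 58735 genes. The deposited normalized signal covers 35754 genes; within a library, its ratio to the raw count is the same for each gene.

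Counts were tested with edgeR 4.0.16 (R 4.3.3): filterByExpr (minimum count 10, minimum total 15), TMM, and a robust quasi-likelihood F test, two-sided, with 1 mean per group over the 12 libraries, for 7 comparisons including the interaction. The test of both compounds against DMSO was also run on simulated counts, and the outcome is not reported here. Coordinates, exon lengths and overlaps come from GENCODE 29 (GRCh38), and GC content and length were known for 17282 of 17290 tested genes. Log2 CPM used a prior count of 2. The biological coefficient of variation was 15.4%. No 2 libraries of 1 group were alike within sampling noise (chi-square per gene 3.02 to 36.5). Nothing in the labels states whether replicates were grown separately, and the p-values therefore reflect variation among these libraries that may be technical.

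The alternatives changed the scaling (RLE, upper quartile) or the tool (DESeq2 1.42.0; voom in limma 3.58.1; limma-trend on the authors' normalized signal, log2 with pseudocount 1). Others used no count filter, a stricter one (CPM of 1 in 3 libraries and 120 counts in all), fits restricted to the compared groups, a fold threshold of 1.2 in the test, the replicate number as a block, GC and length offsets (splines, 5 degrees of freedom), and each library left out. The genes, lists and alternatives were chosen with earlier results of these data known. The genes named are the 10 members, OGG1, the 2 smallest p of each list with both compounds against DMSO, and the 2 protein-coding genes nearest to each member by correlation. Exon-sharing genes and pseudogenes of members were named in addition, outside that rule. One further list of repair genes is not reported here.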

Additional observations from a re-analysis of the deposited data

Results flagged for a closer look

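The effect of PNKP1i differed between cells with and without TH10785 for 3 glycosylases, by the test of the interaction in edgeR's quasi-likelihood fit. For UNG the difference of the effects was -0.51 on the log2 scale (adjusted p = 0.0303), for MBD4 0.87 (adjusted p = 0.0179) and for MPG -0.81 (adjusted p = 0.019). Among all genes 30.6% were called in this test, and 18.9% with the GC and length offsets. All 3 calls were lost with the GC and length offsets (UNG -0.32, adjusted p = 0.105; MBD4 0.48, adjusted p = 0.0813; MPG -0.34, adjusted p = 0.186) and when DMSO replicate 3 was left out (adjusted p = 0.069, 0.0537 and 0.0523). No group was large enough for a test of single outlying libraries.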

How the results depend on the processing

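UNG kept its fall with both compounds against DMSO and against each single agent in each of the 24 alternatives. With the GC and length offsets the number of the 10 members called with both compounds was 6 against DMSO, 1 against TH10785, 2 against PNKP1i and 0 for the interaction, where without offsets it was 1, 2, 3 and 3. The shares of all genes called were 34.1%, 33.4%, 33.3% and 18.9% with the offsets and 41.0%, 42.3%, 46.0% and 30.6% without. With the replicate block and the offsets the number of members was 5 against DMSO, 1 against TH10785, 1 against PNKP1i and 0 for the interaction. A fit of only the groups compared gave 2 for PNKP1i against DMSO and 2 for both compounds against DMSO. The test against a fold of 1.2 gave 1 for both compounds against PNKP1i (3 without it), and DESeq2 gave 5 for the interaction. Leaving out 1 library gave 1 to 3 for both compounds against DMSO, 2 to 3 against TH10785, 1 to 4 against PNKP1i and 0 to 5 for the interaction, and 0 for the other 3 comparisons. The count of 3 against DMSO arose without TH10785 replicate 3, and that of 1 against PNKP1i without PNKP1i replicate 1 or combination replicate 3. The replicate block alone changed no call of a member, and the counts stayed at 1, 2, 3 and 3. Libraries with the same number did not deviate together (r from -0.25 to 0.13 over 18 pairs), so the number is not taken as a pairing. No called value changed sign. Of 1670 values of single members under the alternatives, 33 lost and 30 gained a call. NEIL1 had the fewest counts, 104 to 172 a library. Over all genes the calls ran from 44 to 513 around 97 for TH10785 and from 7 to 1150 around 34 for PNKP1i. Between the single agents they ran from 68 to 556 around 156. For both compounds they ran from 4944 to 8468 around 7093 against DMSO and from 5076 to 7603 around 7317 against TH10785. Against PNKP1i they ran from 5123 to 9100 around 7945, and for the interaction from 2699 to 6140 around 5289.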
